A study of Mus musculus with 9 samples.

Results

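The genes described here are the mouse genes whose symbol is Zfp followed by a number, that is, zinc finger protein genes named by number and not by function. They were chosen by symbol and level: the symbol had to match this form, Zfp36, Zfp42 and Zfp352 were left out, and the mean raw count over the 9 libraries had to be at least 100. The table held 380 such symbols among 52264 rows. After the 3 exclusions and the 119 rows under the mean count, 258 genes remained, and all 258 passed the filter on low counts and were tested among 15366 rows. The level was used for the choice, so the levels below are a description. Just inside the limit were Zfp469 with a mean count of 100.2, Zfp811 with 100.9 and Zfp40 with 101.1. Just outside were Zfp524 with 99.1, Zfp72 with 98.8 and Zfp82 with 95.6.

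Libraries of RNA were sequenced from mouse embryonic stem cells in 3 groups of 3. All 9 samples carried the genotype label β-catenin-/- and were grown on dishes with feeder cells. For expansion, the protocol lists 3 µM CHIR-99021, 1 µM PD03 and 40 ng/ml LIF in DMEM/FBS or N2B27 medium. Cells were moved to N2B27 overnight and then treated for 30 minutes as control (labelled untreated), with BRD0705 or with CHIR. BRD0705 is known as a selective inhibitor of the kinase GSK3α and CHIR-99021 as an inhibitor of both GSK3 paralogs. The doses of the 30 min treatment are not given in the sources used here, so the responses to the inhibitors are compared at unmatched or unknown doses. The labels do not say whether the 3 samples of a group came from separate cultures, or how many clones the genotype rests on. The p-values therefore measure only the spread between these samples, which may be technical.

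Library totals were 17359422 to 20773337 counts. Replicates of each group differed from each other by more than counting noise (chi-square per degree of freedom 3.39 to 8.01). The stem cell markers Pou5f1, Sox2, Nanog, Zfp42, Esrrb, Klf4, Tfcp2l1 and Dppa5a were present in each library, with a summed level of 3614 to 3929 CPM (counts scaled to library size). Counts assigned to Ctnnb1, the gene of β-catenin, stood at 303 to 371 CPM over the 9 libraries. Which part of the gene is deleted is not given in the sources used here, so a count per gene does not check the genotype. All 12 fibroblast markers, which feeder cells could supply, were also detected. They summed to 2284 to 2734 CPM in control libraries, 2895 to 2956 with BRD0705 and 2571 to 3092 with CHIR. In these bulk samples, fewer cells of a type and less RNA per cell cannot be told apart.

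Zinc finger proteins of the C2H2 type read DNA with tandem fingers, each of which contacts a few bases. In many of them the fingers follow a KRAB domain, which binds the corepressor TRIM28 (KAP1). TRIM28 in turn brings in the histone methyltransferase SETDB1, which deposits H3K9me3. In embryonic stem cells such proteins are known for silencing retrotransposons and for keeping imprinting marks, and their genes lie in large clusters of young duplicates.

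The name KRAB-type covered part of the list. A profile of the KRAB A-box matched the translated coding sequence of 147 of the 258 genes. Another 108 had a coding sequence with no match, and 3 (Zfp125, Zfp640 and Zfp781) had no coding sequence in the annotation used. A missing match says only that this profile did not find the domain. At least 1 C2H2 finger pattern was found in 238 genes, with a median of 12 in the genes with a KRAB match and 6.5 in the 108 without. The genes are called Zfp-number genes below, and the KRAB split of the genes past the threshold is given for each comparison.

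The promoters of 6 genes on which the results turn are shown first, because they carry the lowest p-values for changes with CHIR. They are the 5 fallen genes and the 1 risen gene with the smallest p-values among genes with a promoter in the RefSeq table (build GRCm38.p6, the 250 bases before the start that this table lists furthest upstream, 5′ to 3′ on the gene's strand). The RefSeq gene records of Zfp936, Zfp93, Zfp59 and Zfp580 begin further upstream than the listed start, so their windows lie inside the gene record and other starts were not searched. Capitals mark, on either strand, the letters CTTTGA (a TCF/LEF core), ACTACAA (a ZNF143/THAP11 core), TGACGT (a CRE core), CCAAT (an NF-Y box) and CGGAAG (an ETS core). These 5 motifs do not overlap each other in letters within the windows shown. The windows lie at chr7:12965588-12965837 (+) for Zfp324, chr7:43177340-43177589 (+) for Zfp936 and chr7:24270168-24270417 (+) for Zfp93. Those of Zfp111, Zfp59 and Zfp580 lie at chr7:24208150-24208399 (-), chr7:27838334-27838583 (+) and chr7:5051282-5051531 (+).
Zfp324 promoter: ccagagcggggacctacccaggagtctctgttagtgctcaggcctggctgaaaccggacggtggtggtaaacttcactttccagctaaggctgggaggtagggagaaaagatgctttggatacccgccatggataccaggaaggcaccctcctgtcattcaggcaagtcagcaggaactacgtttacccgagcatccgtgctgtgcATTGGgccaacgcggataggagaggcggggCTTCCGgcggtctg
Zfp936 promoter: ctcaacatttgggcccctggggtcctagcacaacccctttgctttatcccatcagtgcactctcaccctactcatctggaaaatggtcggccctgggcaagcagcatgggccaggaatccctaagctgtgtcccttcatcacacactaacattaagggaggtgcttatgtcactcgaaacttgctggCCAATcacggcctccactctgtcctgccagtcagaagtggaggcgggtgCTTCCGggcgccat
Zfp93 promoter: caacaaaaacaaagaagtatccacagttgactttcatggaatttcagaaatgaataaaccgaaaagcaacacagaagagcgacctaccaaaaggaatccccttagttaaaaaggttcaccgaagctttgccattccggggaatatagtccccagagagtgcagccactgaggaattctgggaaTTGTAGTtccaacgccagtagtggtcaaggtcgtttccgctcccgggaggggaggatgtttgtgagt
Zfp111 promoter: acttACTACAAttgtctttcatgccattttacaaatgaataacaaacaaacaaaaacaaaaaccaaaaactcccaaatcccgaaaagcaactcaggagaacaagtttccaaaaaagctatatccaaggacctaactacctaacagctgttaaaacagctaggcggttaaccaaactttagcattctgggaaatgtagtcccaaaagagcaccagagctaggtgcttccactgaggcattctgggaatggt
Zfp59 promoter: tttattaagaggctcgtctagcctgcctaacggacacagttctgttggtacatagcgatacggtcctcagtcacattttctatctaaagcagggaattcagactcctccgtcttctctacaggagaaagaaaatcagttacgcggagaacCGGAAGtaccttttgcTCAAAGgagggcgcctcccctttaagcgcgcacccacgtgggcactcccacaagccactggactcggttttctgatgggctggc
Zfp580 promoter: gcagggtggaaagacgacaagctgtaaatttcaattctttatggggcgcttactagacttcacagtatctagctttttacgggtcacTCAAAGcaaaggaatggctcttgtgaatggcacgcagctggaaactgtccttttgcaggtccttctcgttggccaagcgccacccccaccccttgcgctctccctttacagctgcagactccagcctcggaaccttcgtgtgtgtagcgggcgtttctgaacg
All 6 lie on chromosome 7. Zfp324 and Zfp936, which fell, each have a CCAAT or its reverse upstream of a reversed ETS core close to the listed start. Zfp93 and Zfp111 each hold the letters ACTACAA, but at unlike places. In Zfp93 they are reversed and begin 67 bases before the listed start, and in Zfp111 they are forward and begin 246 bases before it.

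Over the whole list, 205 of the 258 genes had a promoter in the table, among them 19 of the 29 that fell with CHIR and 6 of the 8 that rose. CCAAT was found in 108 of the 205 promoters (52.7%) against 34.5% of 27025 promoters of all genes. CGGAAG was found in 27.8% against 13.8%. Among the 19 fallen genes, CCAAT was found in 12, CGGAAG in 8, CTTTGA in 6, ACTACAA in 4 and TGACGT in 1. For CTTTGA this was 31.6%, against 11.1% of the 180 genes past the threshold in neither direction and 14.1% of all promoters. For ACTACAA it was 21.1%, against 5% and 2.97%. Of the 6 risen genes, 2 held CTTTGA, 2 held TGACGT, 2 held CGGAAG, and none held CCAAT or ACTACAA. The motifs were chosen after the results were known, and ACTACAA after the printed windows had been read, so these shares are descriptions and a match is not a binding site.

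The mean level of the genes ran from 5.17 to 526 CPM. The highest means over the 9 libraries were those of Zfp106, an RNA-binding protein (505 to 556 CPM), Zfp207, a protein of spindle assembly and splicing (440 to 525 CPM), and Zfp57 (364 to 448 CPM). Zfp57 is a KRAB protein that keeps methylation at imprinted regions. Zfp428 (255 to 299 CPM), Zfp532 (158 to 211 CPM) and Zfp706 (161 to 180 CPM) followed. Scaled by annotated transcript length, the order changed: Zfp428 stood at 203 CPM per kb, Zfp980 at 62.4, Zfp296 at 58.7, Zfp57 at 58.4 and Zfp106 at 52.6. The median mean level was 12.3 CPM in the genes with a KRAB match and 26.8 CPM in the coding genes without one. Summed over all 258 genes, the level was 9269 to 9758 CPM in control libraries, 9544 to 9645 with BRD0705 and 9382 to 9451 with CHIR, so the libraries of both inhibitors lay within the control range.

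With BRD0705, the list stayed close to the control. Zfp469, a very long zinc finger protein whose human counterpart is known from brittle cornea syndrome, was the only gene past an adjusted p of 0.05 (edgeR quasi-likelihood test, Benjamini-Hochberg over 15366 rows). That is 0.388% of the list against 1.22% of all tested rows (0.69% higher and 0.534% lower). Unadjusted p-values under 0.05 were found for 41 genes, 21 higher and 20 lower, where 15.9% of all rows had one. DESeq2 called 4 others, all without a KRAB match, and gave Zfp469 no adjusted p. That is 1.55% of the list, against 3.18% of all rows by DESeq2. The groups did not overlap for 40 genes, 15.5% against 20.2% of all rows. The median log2 fold change was -0.02, beside -0.00 over all rows.

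Zfp469 stood at 3.50, 3.73 and 4.48 CPM in the control libraries, at 5.35, 7.28 and 6.46 with BRD0705, and at 4.74, 6.001 and 5.19 with CHIR. The BRD0705 libraries were all above the control libraries, and so were the CHIR libraries. The log2 fold change with BRD0705 was 0.70 ± 0.16 (SE, n = 3 against 3, edgeR adjusted p = 0.0365). With CHIR it was 0.44 ± 0.16, which did not pass (edgeR adjusted p = 0.114), and BRD0705 against CHIR was 0.26 ± 0.15 (edgeR adjusted p = 0.325). The call passed in 3 of 9 fits that each left out 1 library, with adjusted p-values of 0.00133 to 0.368 over all alternatives. It was lost without any 1 of the BRD0705 or control libraries, and with a correction for transcript GC content and length. The fibroblast markers moved the same way: all 12 had a fold change above 0 with BRD0705, and Col1a1 passed the threshold. With the mean log2 level of those markers as a covariate, 0 of 258 genes and 0 of all 15366 rows passed. That level was 6.17 to 6.19 in the BRD0705 libraries and 5.88 to 6.06 in control libraries, with no overlap. Marker level and treatment therefore cannot be told apart in this fit, and a loss of calls does not separate them.

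Within the list, the genes with and without a KRAB match had median fold changes on different sides of 0 with BRD0705. Of the 147 genes with a match, 99 had a fold change below 0, with a median of -0.06, and 0 passed the edgeR threshold (19 at an unadjusted p under 0.05, 17 of them lower). By DESeq2 also 0 of these passed. Of all 15366 rows, 7832 had a fold change below 0, and 1242 were lower at an unadjusted p under 0.05. The 111 others had a median of 0.02. GC content differed in the same way, with a median of 41.4% in transcripts of genes with a KRAB match and 50.7% in coding genes without. The Spearman correlation between GC content and a library's deviation from the mean over libraries, across genes, was 0.26, 0.05 and 0.22 in the BRD0705 libraries (genes are not independent replicates). It was 0.19, -0.29 and -0.16 in control libraries and -0.09, -0.12 and -0.05 with CHIR. With the correction for GC content and length, the medians were -0.03 and 0.02.

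**Figure D1:**
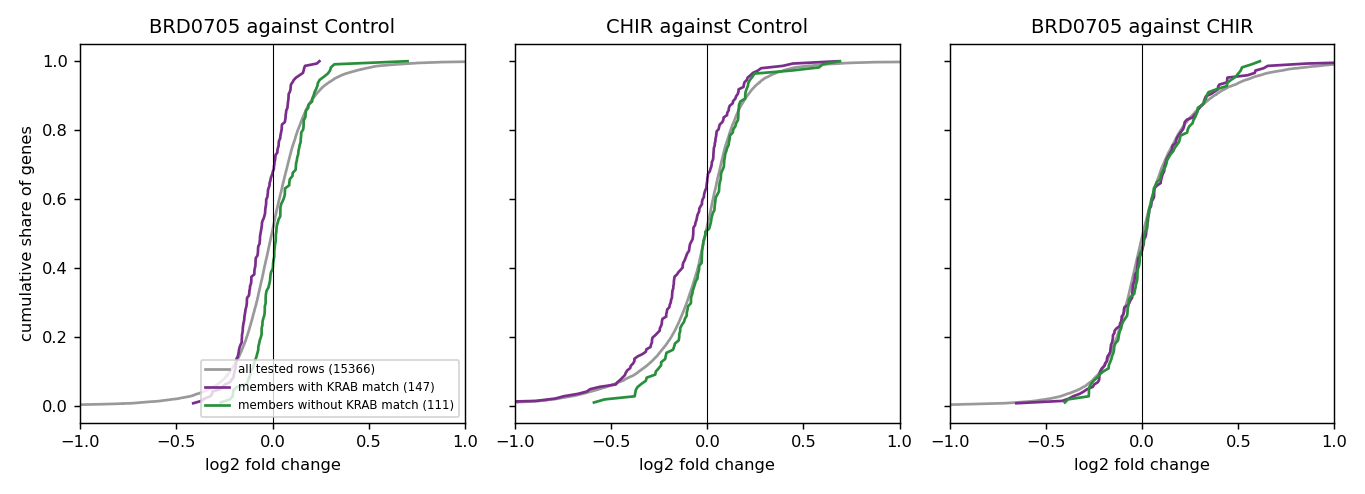
Cumulative share of genes (vertical axis, 0 to 1) by log2 fold change (horizontal axis, cut at -1 and 1) in the 3 comparisons, for all 15366 tested rows, the 147 Zfp-number genes with a KRAB match and the 111 without. The curve of the genes with a match lies left of the others against control, with medians of -0.06 for BRD0705 and -0.07 for CHIR, and the 3 curves lie close together for BRD0705 against CHIR.

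**Figure D2:**
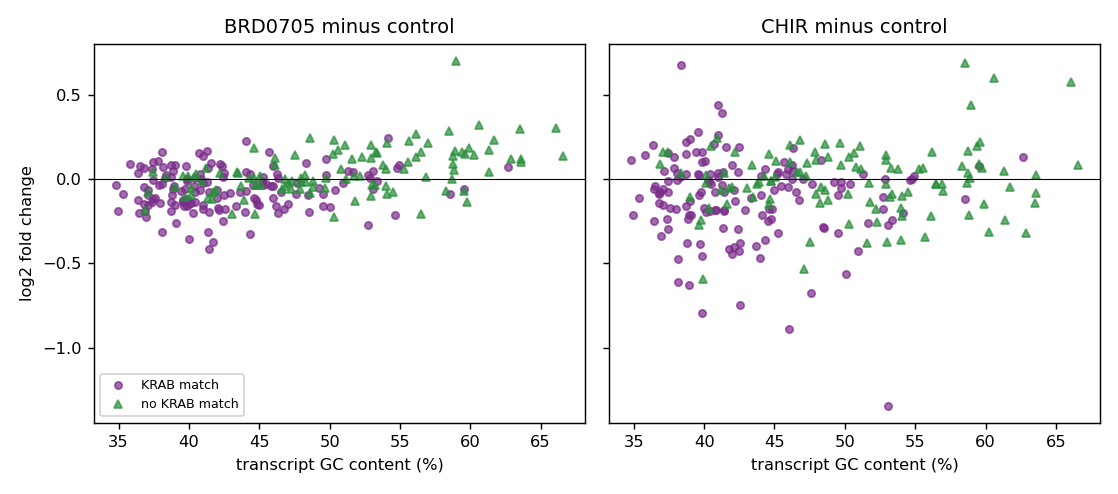
Log2 fold change (vertical axis) against GC content of the annotated transcript in percent (horizontal axis) for the Zfp-number genes, with BRD0705 (left) and CHIR (right); circles are genes with a KRAB match and triangles genes without. With BRD0705 the median is -0.07 in the 65 genes of lowest GC content (up to 40.1%) and 0.09 in the 64 of highest (from 51.7%), and with CHIR the medians are -0.07 and -0.03.

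CHIR changed more of these genes, and mostly downward. Against control, 37 of 258 genes passed the threshold: 29 fell and 8 rose. This is 14.3% of the list, where 6.3% of all tested rows passed, and 11.2% against 3.78% for falls. Rises were at 3.1% against 2.52%. The changes were modest, with a median absolute log2 fold change of 0.42 among the 37, and only Zfp324 exceeded 1. Groups did not overlap for 86 genes, 33.3% against 25.1% of all rows. An unadjusted p under 0.05 was found for 83 genes, and for 20.5% of all rows. Over the list the median fold change was -0.04, beside -0.01 over all rows. DESeq2 called 36.

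Zfp324, a KRAB gene with 9 finger matches, fell the furthest of the 37. Its level was 8.53, 7.31 and 7.93 CPM in control libraries and 3.04, 3.19 and 3.12 CPM with CHIR, while BRD0705 libraries held 7.70, 6.998 and 8.07 CPM. The CHIR libraries were well under the other 6, and the BRD0705 and control libraries overlapped. The log2 fold change was -1.35 ± 0.13 (edgeR adjusted p = 7.97e-06), a 2.54-fold lower level. It passed in all 9 fits that left out 1 library.

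Zfp936, a KRAB gene at a higher level, fell by 0.63 ± 0.08 on the log2 scale (edgeR adjusted p = 7.88e-05). Control libraries held 43.2, 46.3 and 44.3 CPM and CHIR libraries 31.4, 30.3 and 24.8 CPM. BRD0705 libraries, at 42.4, 45.0 and 42.9 CPM, overlapped the control, and the CHIR libraries lay below all of them.

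Zfp93 and Zfp111 are KRAB genes that lie within 1 run of Zfp genes on chromosome 7. Zfp93 went from 12.3, 12.8 and 12.5 CPM to 6.03, 8.09 and 6.12 CPM, a log2 fold change of -0.89 ± 0.12 (edgeR adjusted p = 0.000180). Zfp111 went from 13.5, 14.3 and 14.9 CPM to 9.57, 8.86 and 6.997 CPM, a change of -0.75 ± 0.11 (edgeR adjusted p = 0.000447). For both, all CHIR libraries lay under the 6 others, and BRD0705 libraries overlapped the control (11.1 to 13.1 CPM and 12.7 to 14.1 CPM).

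Zfp59 and Zfp27 completed the 6 falls with the smallest p-values. Zfp59 was even among control libraries, at 33.2, 33.3 and 33.8 CPM, and stood at 23.5, 24.7 and 24.3 CPM with CHIR, a change of -0.47 ± 0.07 (edgeR adjusted p = 0.000447). Its BRD0705 libraries, at 27.5, 31.7 and 28.4 CPM, lay between the groups with no overlap, but BRD0705 against control did not pass (-0.20 ± 0.07, edgeR adjusted p = 0.150). Zfp27, with 21 finger matches, went from 11.7, 9.49 and 10.9 CPM to 6.83, 6.83 and 6.45 CPM (-0.67 ± 0.11, edgeR adjusted p = 0.00113). Its BRD0705 libraries held 9.84 to 10.3 CPM, inside the control range.

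The other 23 falls ran from -0.22 (Zfp516, known from brown fat) to -0.79 (Zfp493). Zfp493, a KRAB gene, had 9.71, 15.4 and 14.0 CPM in control libraries and 5.68, 8.26 and 8.75 CPM with CHIR (-0.79 ± 0.16, edgeR adjusted p = 0.00605). Its control libraries were uneven, and the CHIR libraries lay below all of them. Zfp62 and Zfp239 had fingers (25 and 7 matches) but no KRAB match. Zfp62 went from 18.9, 21.5 and 20.9 CPM to 15.3, 14.5 and 10.8 CPM (-0.59 ± 0.11, edgeR adjusted p = 0.00256), and its BRD0705 libraries held 19.2 to 22.0 CPM. Zfp239 went from 12.8, 12.9 and 11.6 CPM to 8.72, 9.08 and 7.93 CPM (-0.53 ± 0.11, edgeR adjusted p = 0.00702). In both, the CHIR libraries lay under the 6 others. These 3 and Zfp516 were picked for description after their values were seen. The adjusted p of Zfp516 was 0.0276 and passed in 4 of 9 fits without 1 library.

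**Figure D3:**
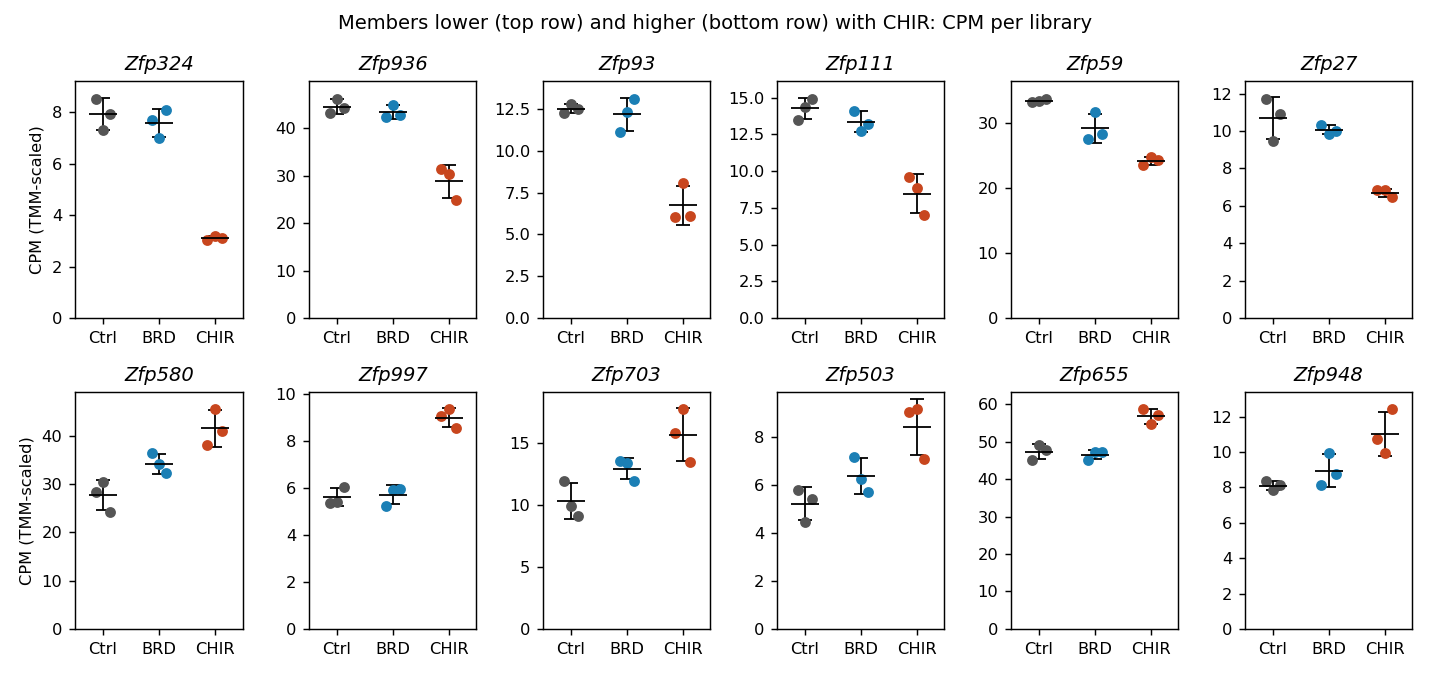
Level in CPM (vertical axes, from 0, TMM-scaled) of the 6 fallen (top) and 6 risen (bottom) Zfp-number genes with the smallest p-values for CHIR against control; each point is 1 library and the bars are mean ± SD over 3. In Zfp324 the CHIR libraries, at 3.04 to 3.19 CPM, stand apart from the 6 others at 6.998 to 8.53 CPM, and in the risen Zfp580, Zfp703 and Zfp503 the BRD0705 means lie between control and CHIR.

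Among the 8 risen genes, 3 had a KRAB match. Zfp580, a short protein with 3 finger matches, stood at 28.4, 30.5 and 24.3 CPM in control libraries, 36.4, 34.1 and 32.3 CPM with BRD0705 and 38.1, 45.5 and 41.1 CPM with CHIR. The 3 groups did not overlap. CHIR against control was 0.58 ± 0.08 (edgeR adjusted p = 0.000447), and BRD0705 against control was 0.30 ± 0.09, which did not pass (edgeR adjusted p = 0.0831). The annotation places another gene, Ccdc106, over it on the same strand, so reads of the 2 may be shared.

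Zfp997, a KRAB gene with 19 finger matches, had 5.37, 5.42 and 6.06 CPM in control libraries, 5.24, 5.92 and 5.98 CPM with BRD0705 and 9.07, 9.36 and 8.58 CPM with CHIR. The CHIR libraries lay above all 6 others, by a log2 fold change of 0.68 ± 0.12 against control (edgeR adjusted p = 0.00174). Zfp655, also with a KRAB match, went from 45.2, 49.2 and 47.8 CPM to 58.7, 54.6 and 57.1 CPM (0.26 ± 0.06, edgeR adjusted p = 0.0106). Its BRD0705 libraries, at 45.2 to 47.3 CPM, overlapped the control. Zfp997 may share reads with near-identical copies, since how reads with several matches were assigned is not given in the sources used here.

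Zfp703 and Zfp503 belong to a small family of corepressors of developmental genes that lack the tandem fingers of the others. Zfp703 rose from 11.9, 9.93 and 9.07 CPM to 15.8, 17.7 and 13.4 CPM (0.60 ± 0.11, edgeR adjusted p = 0.00414). Zfp503 rose from 5.77, 4.46 and 5.42 CPM to 9.02, 9.14 and 7.05 CPM (0.69 ± 0.14, edgeR adjusted p = 0.00692). For both, control and CHIR libraries did not overlap, while some BRD0705 libraries reached into another group's range (11.9 to 13.5 CPM and 5.70 to 7.17 CPM). Their adjusted p-values reached 0.178 and 0.232 under alternatives. Zfp948, a KRAB gene, rose by 0.44 ± 0.11 (edgeR adjusted p = 0.0241), from 7.85 to 8.33 CPM in control libraries to 9.97 to 12.4 CPM. It passed in 6 of 9 fits without 1 library.

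The other 2 risen genes are Zfp335, known from neural progenitors and microcephaly, and Zfp384, whose human counterpart is known from fusions in leukaemia. Zfp335 changed by 0.22 ± 0.06 (edgeR adjusted p = 0.0407) and Zfp384 by 0.20 ± 0.06 (edgeR adjusted p = 0.0415). Each passed in 3 of 9 fits without 1 library. In every comparison, 3 of the 9 fits leave out a library of the group that is not compared. For Zfp384 the BRD0705 libraries were as high as the CHIR libraries (124 to 136 and 122 to 134 CPM, control 110 to 112 CPM), and its BRD0705 value of 0.21 ± 0.06 did not pass (edgeR adjusted p = 0.0715).

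Of the 37 genes, 18 passed in all 9 fits that left out 1 library. Without control 2 the count over the list was 23 (8.91%), and without control 3 it was 22 (8.53%). The share of all rows also fell, from 6.3% to 3.35% and 3.6%. CHIR libraries lay under all 3 control libraries for 28 of the 29 fallen genes and under all 6 other libraries for 23. Of the 8 risen genes, CHIR libraries lay above all control libraries for 8 and above all 6 others for 4. Of all 15366 rows, CHIR libraries lay under all control libraries in 2173 and above them in 1680. The fallen and risen genes were chosen by the same control and CHIR libraries, so little overlap between those was set by the choice. These counts are a description and no test. Summed over the 29, the level was 955 to 1030 CPM in control libraries, 969 to 988 CPM with BRD0705 and 771 to 792 CPM with CHIR. This sum shows the size of the fall and is no test, since the genes were selected by it.

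With the correction for GC content and length, 51 genes passed, 19 higher and 32 lower, and 36 of the original 37 were among them. Under that setting 10% of all rows passed, with 1008 higher and 532 lower where 387 and 581 had passed without the correction. With the fibroblast marker level as a covariate, 11 of the 37 passed, 2 higher and 9 lower, and 1.52% of all rows passed. All 12 fibroblast markers had fold changes above 0 with CHIR, and Col1a1 passed. Of the 8 stem cell markers, Esrrb and Klf4 passed, both higher. The part of either cell type in the result was not tested beyond these values.

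Genes with a KRAB match made up 22 of the 29 falls and 3 of the 8 rises. This is 17% of the 147 past the threshold, against 10.8% of the 111 without (5 rises and 7 falls), both to be read against the 6.3% of all rows. The medians were -0.07 and -0.01. The difference between genes with and without a match was not tested. With the correction for GC content and length the counts were 5 rises and 26 falls with a match, and 14 rises and 6 falls without. Of the other KRAB zinc finger genes, with other names or with counts under the limit, 156 of 176 were tested. Among these 10 fell and 0 rose (DESeq2 called 5), with a median of -0.16. That is 6.41% called, all of them falls, beside 3.78% of all rows for falls and 6.3% in either direction. Of the 156, 118 had a fold change below 0, beside 8053 of all 15366 rows. Of these other KRAB genes, 52 had a mean count of at least 100, with 5 falls and 0 rises, or 9.62% (DESeq2 called 3). Among Zfp-number genes under the mean count of 100, 98 were tested, with 5 falls and 0 rises (DESeq2 called 2). That is 5.1%, beside 3.78% of all rows for falls and 6.3% in either direction. Their median was -0.18, and 76 of the 98 had a fold change below 0. Those of the 98 with a KRAB and finger match are also among the 156, so the lists and their falls overlap. Of 123 other tested coding genes with 3 or more fingers and no KRAB match, 8 fell and 3 rose, or 8.94%.

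**Figure D4:**
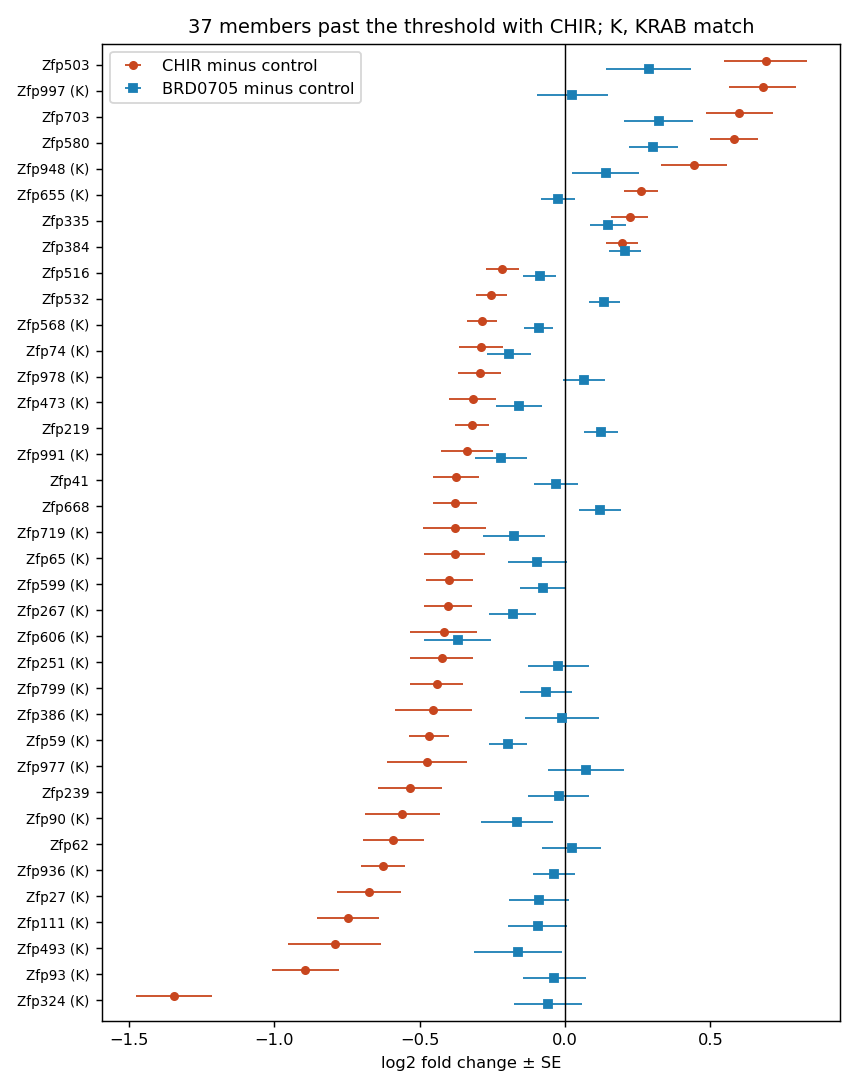
Log2 fold change ± SE (horizontal axis) of the 37 Zfp-number genes past the threshold for CHIR against control (circles), with the same genes for BRD0705 against control (squares); K marks a KRAB match, and both comparisons share the control libraries. CHIR values run from -1.35 to 0.69, while the BRD0705 values of the 29 fallen genes run from -0.37 to 0.13.

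Falls were found at all levels and lengths within the list. In 4 bins of 64 or 65 genes ordered by mean level from lowest to highest, falls numbered 4, 10, 9 and 6, and in bins of transcript length 3, 9, 9 and 8. Over bins of GC content they numbered 8, 7, 9 and 5, and rises 1, 2, 1 and 4. The median GC content was 44.0% in fallen genes, 54.8% in risen genes and 44.7% in the 221 others. The fallen genes had a median of 11 finger matches, the risen 6.5 and the others 10.

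By position in the genome, chromosome 7 held the largest number. It carries 63 of the 253 genes that could be placed, 40 of them with a KRAB match, with 13 of the 29 falls and 1 rise. Placed genes no more than 500000 bases from the next formed 34 runs with 156 genes, which held 22 falls and 3 rises. The 97 genes outside runs held 7 falls and 4 rises. These counts are a description, since neighbouring duplicates are not independent.

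Within runs the response was uneven. In chr7:12478280-12985717 (GRCm38.p6), which holds Zfp606, Zfp329, Zfp110, Zfp324 and Zfp446, all 5 genes were below control and 2 passed, Zfp324 and Zfp606 (the latter in 4 of 9 fits without 1 library). Zfp110, a neurotrophin receptor interacting factor in the middle of that run, stood at 42.5 to 48.3 CPM in control libraries and 42.9 to 44.5 CPM with CHIR. In chr7:29768552-30169775, 3 of 10 genes fell (Zfp27, Zfp74 and Zfp568), and in chr7:42473386-43618279, 3 of 9 (Zfp936, Zfp719 and Zfp977). Zfp719 and Zfp977 each passed in 1 of 9 fits without 1 library. The run at chr17:21008941-23599755 differed in count. It holds 13 genes with a KRAB match, of which 0 passed as falls and Zfp948 rose, and 3 had a fold change below 0. Among these 3, Zfp40 was at -0.61 ± 0.18 (edgeR adjusted p = 0.0572) and Zfp229 at -0.24 ± 0.08 (edgeR adjusted p = 0.0775). In both, all CHIR libraries lay under the control libraries. In chr4:145510759-147812229, a run whose members may share reads, 12 of 14 were below 0 and 2 fell.

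Most of the KRAB genes named here for a known target in stem cells showed no call. With CHIR, 17% of the 147 genes with a KRAB match passed, so few calls would be found in any such small set. Zfp568, which represses a placental Igf2 transcript, was the exception. It had 164, 177 and 171 CPM in control libraries, 156, 162 and 163 CPM with BRD0705 and 143, 138 and 140 CPM with CHIR. The 3 groups did not overlap, and CHIR against control passed (-0.29 ± 0.05, edgeR adjusted p = 0.00239). Zfp57 and Zfp445, which keep imprints, did not pass in any comparison. Zfp57 had 448, 418 and 394 CPM in control, 399, 364 and 377 CPM with BRD0705 and 448, 408 and 403 CPM with CHIR, so the groups overlapped. Zfp445 had 42.1 to 48.8 CPM in control, 38.5 to 41.3 CPM with BRD0705 and 40.1 to 43.7 CPM with CHIR. Zfp809, which recognises the primer binding site of retroviruses, had 23.9 to 25.1, 26.9 to 28.2 and 25.8 to 26.8 CPM in the same order. It did not pass either (edgeR adjusted p = 0.213 with BRD0705 and 0.406 with CHIR). The retroelement repressors Zfp932 (6.26 to 9.56 CPM over the 9 libraries) and Zfp819 (17.1 to 20.01 CPM) did not pass in any comparison.

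The genes without a KRAB match named here for a role in stem cells were also past no threshold, where 10.8% of the 111 passed with CHIR. Zfp281, which acts in the exit from naive pluripotency, held 91.2 to 113 CPM over the 9 libraries. Zfp143, which binds the ACTACAA core searched for above, held 39.0 to 44.2 CPM, with a CHIR value of -0.01 ± 0.06 on the log2 scale. Zfp706 differed by 0.09 ± 0.05 with CHIR and Zfp296 by 0.09 ± 0.06. Zfp207 and Zfp292 came closer to the threshold with CHIR, at 0.16 ± 0.05 (edgeR adjusted p = 0.0724) and 0.20 ± 0.06 (edgeR adjusted p = 0.0589). Zfp638, known from retroviral silencing, was at -0.17 ± 0.06 (edgeR adjusted p = 0.0824). None of Zfp148, Zfp217, Zfp423, Zfp462, Zfp644, Zfp91 and Zfp106 passed in the 3 comparisons by edgeR. The same holds for Zfp110, Zfp369, Zfp961 and Zfp942, which have a KRAB match.

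BRD0705 against CHIR was tested directly, and 40 of 258 genes passed. This is 15.5% of the list, against 7.77% of all tested rows. In 34 the level was higher with BRD0705 than with CHIR, and in 6 it was lower, which is 13.2% and 2.33% against 4.8% and 2.97% of all rows. Groups did not overlap for 98 genes, 38% against 26.7%, and 85 had an unadjusted p under 0.05, where 22.5% of all rows had one. The counts were 17 higher and 3 lower both in genes with a KRAB match and in those without. That is 13.6% of the 147 with a match and 18% of the 111 without, a difference that was not tested. With the correction for GC content and length the split was 28 higher and 17 lower (15 and 5 with a KRAB match, 13 and 12 without). Over all rows it turned from 738 higher and 456 lower to 480 higher and 985 lower (9.53% called). Leaving out BRD0705 replicate 1, CHIR replicate 1 or CHIR replicate 2 brought the count to 24, 26 and 25. These are 9.3%, 10.1% and 9.69% of the list, against 3.95%, 4.33% and 3.94% of all rows.

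The direct difference followed the falls with CHIR in part. Of the 29 genes lower with CHIR than control, 20 were also higher with BRD0705 than with CHIR, and of the 8 risen genes 3 were lower with BRD0705 (Zfp580, Zfp655 and Zfp997). These comparisons share the CHIR libraries, so the counts are set side by side and are not independent. Another 17 genes passed only in the direct comparison. Zfp324 had the largest direct difference of the 40 (1.29 ± 0.13, edgeR adjusted p = 1.15e-05), followed by Zfp93 (0.86 ± 0.12). Zfp936 differed by 0.59 ± 0.08.

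Zfp219, Zfp532 and Zfp668, all without a KRAB match, stood higher with BRD0705 than with CHIR from both sides of the control. Zfp219 had 45.5, 41.5 and 44.7 CPM in control, 46.9, 47.2 and 49.1 CPM with BRD0705 and 35.5, 34.9 and 35.0 CPM with CHIR. The groups did not overlap, and the direct difference was 0.44 ± 0.06 (edgeR adjusted p = 0.000190). Zfp532, one of the most abundant of the list, had 177, 196 and 198 CPM, 211, 210 and 206 CPM, and 160, 158 and 161 CPM in the same order. Its direct difference was 0.39 ± 0.05 (edgeR adjusted p = 0.000229), again with no overlap. Zfp668, known from DNA repair, had 26.1 to 27.9 CPM, 28.8 to 29.6 CPM and 18.7 to 22.7 CPM, a direct difference of 0.50 ± 0.07 (edgeR adjusted p = 0.000481). For all 3, BRD0705 against control alone did not pass (edgeR adjusted p = 0.314, 0.217 and 0.442).

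Of the 6 genes lower with BRD0705 than with CHIR, Zfp997 differed by -0.65 ± 0.12 and Zfp655 by -0.29 ± 0.06. Zfp998, Zfp263 and Zfp654 passed only in the direct comparison. Zfp998, a KRAB gene with possible near-identical copies, had 15.3 to 19.1 CPM in control, 14.96 to 17.4 CPM with BRD0705 and 20.6 to 22.1 CPM with CHIR (-0.42 ± 0.09, edgeR adjusted p = 0.00897). Zfp263 differed by -0.27 ± 0.07, Zfp654 by -0.28 ± 0.08 and Zfp580 by -0.28 ± 0.08. These last 3 passed in 4, 3 and 4 of 9 fits without 1 library, and their adjusted p-values reached 0.134, 0.181 and 0.209.

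**Figure D5:**
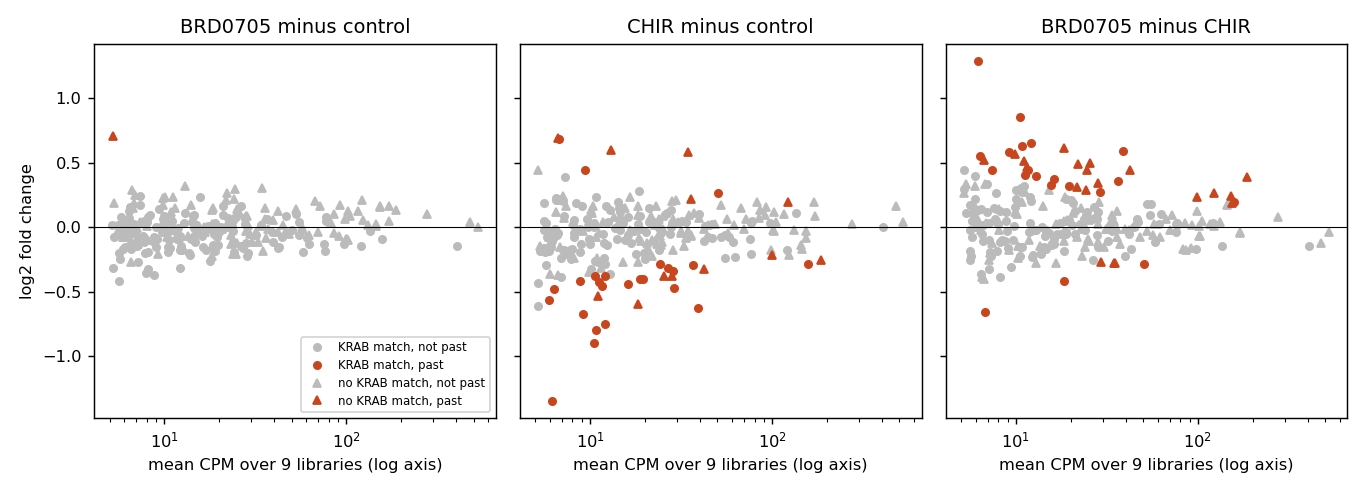
Log2 fold change (vertical axis) against mean CPM over 9 libraries (horizontal axis, log scale) for the 258 Zfp-number genes in the 3 comparisons; circles have a KRAB match, triangles have none, and coloured points passed an adjusted p of 0.05. There is 1 coloured point for BRD0705, 37 for CHIR (29 below 0) and 40 for the direct comparison (34 above 0), spread over the range of levels.

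The corepressor machinery through which KRAB proteins act was measured alongside. Of 35 genes of this machinery and of heterochromatin, 0 passed with BRD0705 (edgeR, 8 at an unadjusted p under 0.05; DESeq2 3) and 0 with CHIR (edgeR, 1 unadjusted; DESeq2 0). Of all rows, 1.22% passed with BRD0705 (15.9% unadjusted, DESeq2 3.18%) and 6.3% with CHIR (20.5% unadjusted, DESeq2 6.04%). At these shares few calls would be found among 35 genes, so the counts do not show that the machinery was unchanged. Trim28, the KRAB corepressor, had 2406 to 2565 CPM in control libraries, 2577 to 2652 CPM with BRD0705 and 2578 to 2647 CPM with CHIR. Control and treated libraries did not overlap, but the changes, 0.07 ± 0.05 for each inhibitor, did not pass (edgeR adjusted p = 0.543 and 0.467). Setdb1 had 110 to 111 CPM, 106 to 117 CPM and 114 to 117 CPM in the same order. Sumo2, which encodes the modifier that links TRIM28 to its partners, passed in the direct comparison alone. It was the only 1 of the 35 to do so by edgeR (2.86%, against 7.77% of all rows). It had 389 to 454 CPM in control, 362 to 384 CPM with BRD0705 and 431 to 457 CPM with CHIR, a difference of -0.26 ± 0.06 (edgeR adjusted p = 0.0109).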

How the data were processed

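RNA-seq libraries of 9 samples in 3 groups were used, grouped by the library descriptions in the labels. The authors deposited raw counts per gene symbol as whole numbers. Per the submitters' processing notes, RSEM, DESeq2 and mm10 were used; versions, annotation, strand and treatment of multiply mapped reads are not given in the sources used here. Per the labels' protocols, libraries came from total RNA with ribosomal RNA depletion (TruSeq with RiboZero), while the molecule label names polyA RNA. The sample protocols and the series design name different extraction kits. No label names a batch. The deposited normalized table was not used.

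Counts were tested with edgeR 4.0.16 (R 4.3.3). TMM scaling and the filterByExpr filter (minimum count 10) came before a 2-sided quasi-likelihood F test. All 9 libraries entered 1 fit of 3 group means, with 6 residual degrees of freedom and a common dispersion of 0.00356. The threshold was 0.05 on p-values adjusted by Benjamini-Hochberg over 15366 rows. CPM values are TMM-scaled. DESeq2 1.42.0 and limma voom 3.58.1 were alternatives, with other scalings and filters, a replicate block and fits leaving out each library. Corrections for GC content and length, a fibroblast marker covariate and the removal of overlapping rows were chosen after seeing the data. The code was tested on simulated data.

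Transcript length, GC content, overlaps and translated coding sequences came from GENCODE vM39, and the KRAB profile was built from 232 seed windows of 41 residues (pyhmmer 0.12.3, E-value under 0.001). A RefSeq protein table was not used here, so the KRAB split rests on these translations. Positions and promoters are from RefSeq, GRCm38.p6. Replicate numbers were not taken as pairs. Genes named were those past the threshold (where over 20, the 12 with the smallest p, balanced by direction), the 6 highest, those around the count limit, genes of known role, and corepressor genes past the threshold with Trim28 and Setdb1; others were added after their values were seen. The members, lists and rules were chosen with earlier results of these data known.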

Additional observations from a re-analysis of the deposited data

How the results depend on the processing

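The numbers of genes past the threshold and the medians were recomputed under each alternative, and no called value of a named gene changed sign. For BRD0705 against control, 1 gene passed, against 4 with DESeq2 and 4 without the low-count filter, and 0 with the correction for GC content and length, with that correction and the replicate block, and with the fibroblast covariate. In the same order, 3.18%, 2.28%, 0.755%, 0.67% and 0% of all rows passed. Leaving out 1 library gave 0 to 3, with a median of -0.0443 to 0.0147, while 0.135% to 1.96% of all rows passed. For CHIR against control, 37 became 11 with the fibroblast covariate and 22 to 37 without 1 library. Of all rows, 1.52% passed with that covariate and 3.28% to 6.86% without 1 library. Where the library left out was a control or CHIR library, the count was 22 to 36, and 3.28% to 4.82% of all rows passed. The median of -0.04 became 0.0024 with the GC and length correction and 0.0021 with the replicate block added, while the median over all rows went from -0.0091 to 0.0349 and 0.0346. The median of the list was -0.0556 to -0.0030 without 1 library. For BRD0705 against CHIR, 40 became 24 to 44 without 1 library (24, 26 and 25 without BRD0705 replicate 1, CHIR replicate 1 and CHIR replicate 2). Over the same fits 3.94% to 8.41% of all rows passed. Where the library left out was a BRD0705 or CHIR library, the count was 24 to 31, and 3.94% to 5.92% of all rows passed. Of corepressor genes, BRD0705 against control gave 3 with DESeq2, 1 without filter and 0 to 2 without 1 library. CHIR against control gave 1 with the GC and length correction, with and without the block, and 0 to 1 without 1 library. The direct comparison gave 2 with DESeq2, 2 without filter, 4 with the GC and length correction, 3 with the block added and 0 to 1 without 1 library. The cause was not tested.

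With the replicate block alone, the counts over the list were 1, 37 and 40, as without it. Libraries of the same number did not deviate together (mean r -0.00119 over 9 pairs, -0.0897 to 0.0802), so the numbers were not read as pairs. With 3 libraries a group at 17359422 to 20773337 counts, changes smaller than the standard errors given were not resolved. Changes well above the standard error could also fail to pass, as Zfp292 did with CHIR (0.20 ± 0.06, edgeR adjusted p = 0.0589). A gene that did not pass is therefore not shown to be unchanged.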
